A study of Drosophila melanogaster with 24 samples.

Results

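The comparison set the lines of *Drosophila melanogaster* that had been selected for aggressive behavior in either direction against the lines that had not been selected. All 24 arrays of the series entered it. The 16 selected arrays came from the high aggression lines H1 and H2 and the low aggression lines L1 and L2, and the 8 control arrays came from the unselected lines C1 and C2. Each line was represented by 2 arrays of males and 2 arrays of females. Of 9913 genes tested, 405 met the rule for a called gene (4.09%), with 158 higher and 247 lower in the selected lines. A called gene had an adjusted p under 0.05 for the mean of the 4 selected lines minus the mean of the 2 control lines, and all 4 selected lines lay on one side of both control lines, so that all 8 differences between a selected and a control line had one sign.

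All 6 lines descended from one base population made by crossing isofemale lines, each the progeny of 1 wild female. Selection was on males only, whereas RNA was taken from whole bodies of virgin males and of virgin females, 3 to 7 days old, pooled within a line and sex. The study deprived the flies of all lines of food for a short time before RNA was taken. Both arrays of a line and sex came, per the study's methods, from separate pools of flies with an RNA extraction each. P-values over arrays therefore measure the spread between pools within a line and leave out the spread between lines, and 14 genes were called when line was a random block and 0 probe sets passed when the line was the replicate, as given at the end. The control group holds 2 lines, so a shift of either one enters every difference. In whole bodies, fewer cells of a type and less RNA per cell cannot be told apart.

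Lines propagated apart under artificial selection diverge in allele frequencies through selection and through drift. The comparison asks which transcripts differed from the control lines in one direction in all selected lines, whichever way aggression had been selected. Genes of immunity, detoxification and digestion were among those with the largest separated differences. Bomanins are short secreted peptides of the fly's fat body that are produced under Toll signaling. Glutathione S-transferases, UDP-glycosyltransferases and cytochromes P450 oxidize or conjugate foreign and endogenous small molecules. Jonah and trypsin proteases digest protein in the midgut, whose contents are enclosed by the peritrophic matrix, a sheet of chitin and chitin-binding proteins such as peritrophins.

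The median Signal, the intensity deposited for each probe set, was 124.8 to 143.4 on male arrays and 71.4 to 118.9 on female arrays, and the trimmed means lay within 497.1 to 498.4. A pair of arrays stood apart. On female replicate 1 of C1, accessory gland transcripts reached 3.11% and testis transcripts 2.98% of their mean male Signal, beside at most 0.469% and 0.988% on the female arrays of the selected lines. Female replicate 1 of L1 had the highest female median, 118.9. Without both arrays, a comparison added after the data had been seen, 374 genes were called (172 higher, 202 lower), and 258 of them were among the 405. In males the summed Signal of 11 testis markers was 73271 to 86034 on selected and 59267 to 69973 on control arrays, without overlap, and its part in the results was not tested. Sums of the gut and fat body markers overlapped between the groups in each sex. One male array labelled with line 1 of the H lines was read as H2, because H1 already had a male with that replicate number.

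Most differences were small. The genes called higher had a median difference of 0.36 on the scale of log2(Signal + 16), a median fold of 1.28, and those called lower had a median difference of -0.31, a median fold of 1.24 in favor of the control lines. Only 10 of the 405 exceeded 2-fold, 3 higher and 7 lower. The nearest selected and control lines of a called gene were a median of 0.09 apart, about as much as the median standard error of a difference over all genes tested, 0.08, and the median difference over all genes was -0.01. Separation of the lines alone was more frequent than a call, as 1232 genes (12.4%) had all 4 selected lines beyond both control lines whatever the p-value, 538 higher (5.43%) and 694 lower. Lines in an arbitrary order would be separated in either direction with a probability of 0.133, which the share of 12.4% does not exceed. Of the called genes, 136 (1.37% of those tested) were also separated in males and in females taken alone. The number called depended on the lines, with 630 genes without L1 and 1029 without C1, where fewer differences had to share a sign, and without C2 only 159 of 466 called genes were among the 405.

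**Figure D1:**
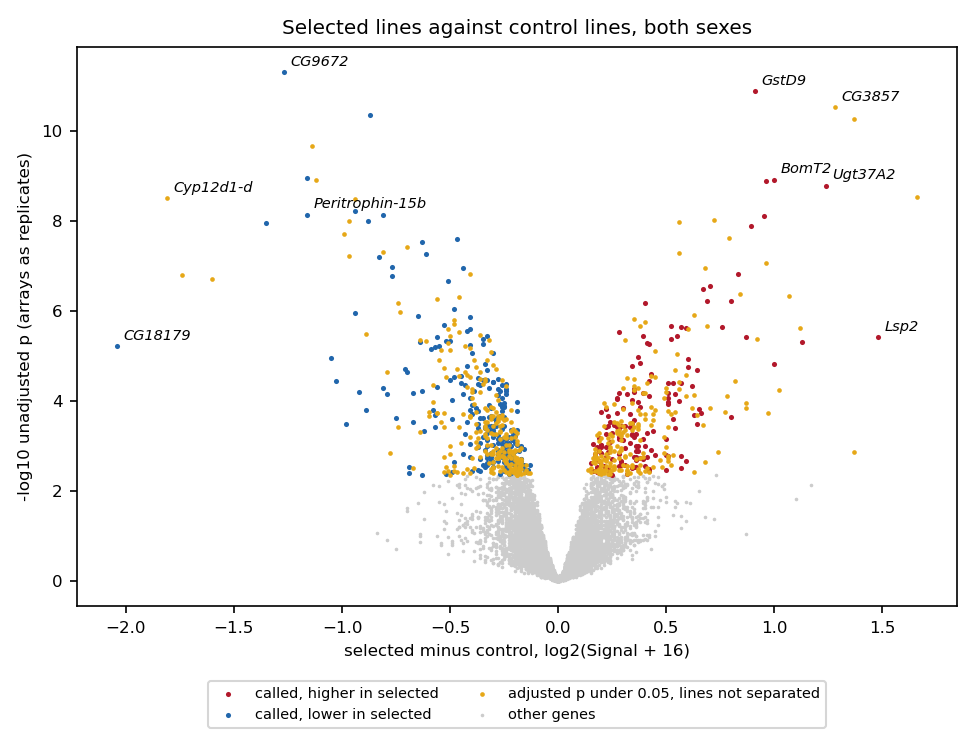
Difference between the selected and the control lines over both sexes (horizontal axis, log2(Signal + 16)) and its unadjusted p with arrays as replicates (vertical axis, -log10), 1 point for each of 9913 genes. Red points are the 158 genes called higher, blue points the 247 called lower and yellow points genes with an adjusted p under 0.05 whose lines were not separated, among them CG3857 and Cyp12d1-d.

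In a small set of genes no array overlapped. For 14 genes (0.141%) every selected array of a sex lay beyond every control array of that sex, in one direction in both sexes, and all 14 were called, 6 higher (0.0605%) and 8 lower (0.0807%). The higher ones were Ugt37A2, BomT2, BomBc2, GstD9, Cyp4d1 and CG31729. The lower ones were CG9672, SmydA-6, IA-2, Peritrophin-15a, Muc68D, hfw, CG4629 and Cerk.

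Selected lines had more transcript of 4 bomanins. Of 18 antimicrobial peptide genes tested, 5 were called higher and none lower, against 1.59% called higher and 2.49% called lower over all genes, and 17 of the 18 differences were positive, with a median of 0.29 beside -0.01 over all genes. A group of 4 neighboring genes on arm 2R, BomBc2, BomS2, BomT2 and BomS5, accounted for all but 1 of the calls. Bomanins are related in sequence, so that hybridization of one to the probes of another cannot be told apart from a change in both.

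BomT2 Signals in males were 4369.9 to 9639 with a median of 5914 on the 8 selected arrays, against 3977 and 3395 on the C1 arrays and 2764 and 2038 on the C2 arrays. In females they were 4150.3 to 7859 with a median of 6774 on the 8 selected arrays, against 2714 and 3678 on the C1 arrays and 3054 and 3250.1 on the C2 arrays. No array of one group entered the range of the other in either sex, and the difference of 1.00 ± 0.0755 (SE, limma, adjusted p = 1.31e-06) was the largest among the bomanins. It was 1.08 for the H lines and 0.92 for the L lines, each against the control lines. BomBc2, a bomanin with a repeated bomanin motif, lay between 6569 and 11311 (median 7689.6) in the selected lines and at 4836, 5257, 4299 and 2912 on the 4 control arrays in males. In females it lay between 5986 and 11816 (median 8392) in the selected lines and at 3795, 5231, 4031 and 4068 on the 4 control arrays. Its difference of 0.96 ± 0.0726 was the same in both sexes, and the H and L lines differed from the controls by 0.97 and 0.95.

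BomS2, a short bomanin, differed by 0.69 ± 0.0831 (limma, adjusted p = 0.00011), and by 0.69 in both the H and the L lines. In males its Signals were 7267 to 13747 with a median of 12403 on the 8 selected arrays, against 8156 and 8221 on the C1 arrays and 7802 and 5612 on the C2 arrays. Both low male values were those of L2, and the lower one lay within the control range. BomS5 differed by 0.54 ± 0.0997 (limma, adjusted p = 0.00312) with overlapping arrays in each sex. BomS4 at 0.39, BomT3 at 0.24 and BomS6 at 0.20 had adjusted p-values of 0.0277, 0.0371 and 0.0446 in limma without separation of the lines. The fifth called peptide, Drsl5, a relative of the antifungal peptide drosomycin, differed by 0.60 ± 0.0971, it was higher in the H than in the L lines by 0.80 (limma, adjusted p = 0.000295), and its call ended without H2. DptB, an antibacterial diptericin, had the largest difference of the list, 1.17 ± 0.378, with an adjusted p of 0.0699 in limma, and was not called. It was at 0.05 in H minus C and 2.30 in L minus C, and at 0.44 in males and 1.90 in females. Drs, drosomycin itself, differed by 0.05 ± 0.183.

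None of 10 peptidoglycan recognition and thioester proteins was called, with a median difference of -0.01. NimB3, a secreted member of the Nimrod family of phagocytosis receptors and related proteins, was called higher at 0.63 ± 0.128, while the 4 other NimB genes tested had differences between 0.07 and 0.29 and none was called. Among 39 serpins and proteases of the Spaetzle and melanization cascades, Spn47C, a serine protease inhibitor, was called lower at -0.55 ± 0.0811 and no gene was called higher. The share called was 2.56%, against 4.09% of all genes.

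**Figure D2:**
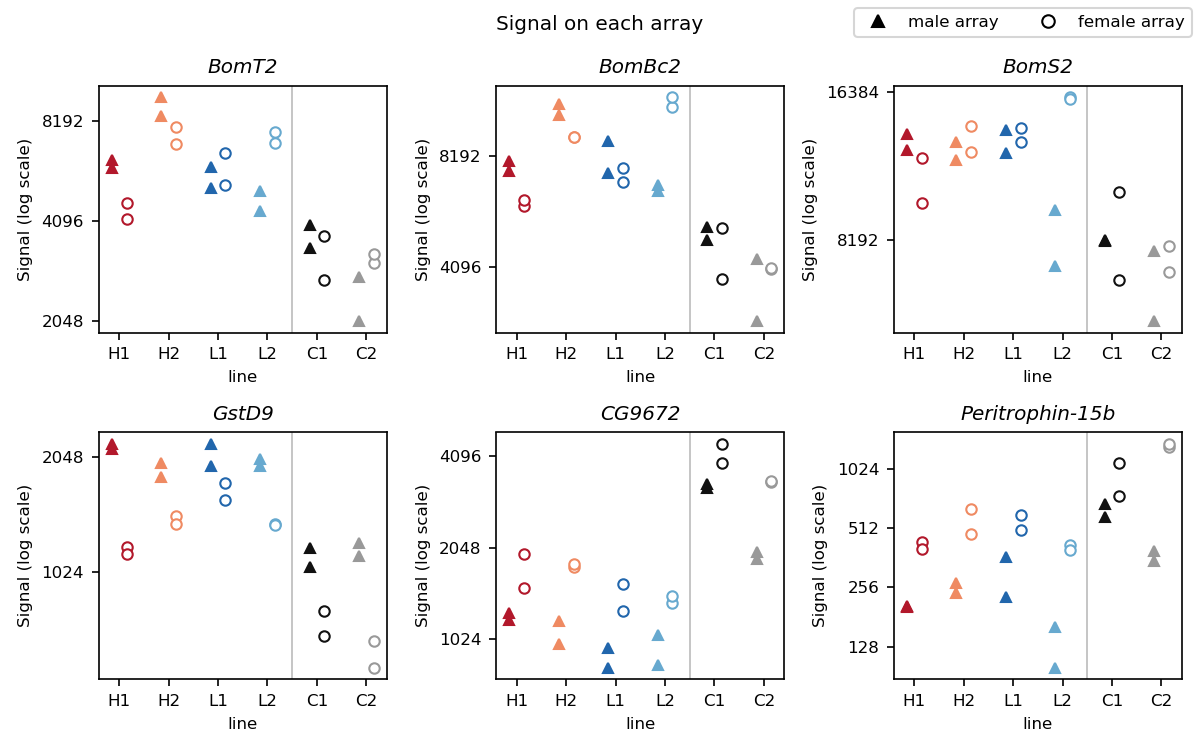
Signal on each array (vertical axis, log scale) by line (horizontal axis, selected lines H1, H2, L1 and L2 left of the control lines C1 and C2) for 6 genes, triangles for males and circles for females. BomT2, BomBc2 and GstD9 were higher on every selected array than on any control array of the same sex, CG9672 was lower on every one, BomS2 overlapped in both sexes, and Peritrophin-15b overlapped in males through low C2 values.

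Selected lines had more transcript of a few enzymes of detoxification, while the medians of their families lay between -0.04 and -0.02. GstD9, a glutathione S-transferase of the delta class, had the second lowest adjusted p of all called genes. Its Signals in males were 1817 to 2224 with a median of 2000.0 on the 8 selected arrays, against 1187 and 1055 on the C1 arrays and 1219.6 and 1128 on the C2 arrays. Female Signals were 1144 to 1753 with a median of 1373 on the 8 selected arrays, against 697 and 812 on the C1 arrays and 576 and 679 on the C2 arrays. The difference was 0.91 ± 0.0498 (limma, adjusted p = 8.07e-08), and the 4 selected lines had mean values between 10.66 and 10.87 on the log2 scale beside 9.87 in C1 and 9.77 in C2. The neighboring GstD10 differed by 0.87 ± 0.123, with Signals in females between 84.7 and 225 (median 142) in the selected lines and at 41.2, 58.4, 67.5 and 25.8 on the 4 control arrays. Its male arrays overlapped. The difference was 0.43 among males and 1.32 among females, and GstD3 was called at 0.34 ± 0.0765, a call that ended in 2 of the 24 fits that left out 1 array. In all, 3 of 33 glutathione S-transferases (9.09%) were called, all higher, against 1.59% called higher and 2.49% called lower over all genes, and the median difference of the family was -0.02 (0.02 after quantile normalization). Members of the GstD cluster are similar in sequence, and their signals may not be fully separate.

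Ugt37A2, which transfers sugars to small molecules, had the largest difference of the genes called higher and separated in each sex. In males its Signals were 437 to 1051 with a median of 663 on the 8 selected arrays, against 376 and 256 on the C1 arrays and 325 and 248 on the C2 arrays. On female arrays they were 558 to 1285 with a median of 929.6 on the 8 selected arrays, against 242 and 311 on the C1 arrays and 347 and 494 on the C2 arrays. The difference of 1.24 ± 0.0955 (limma, adjusted p = 1.54e-06) was larger in the H lines, 1.61, than in the L lines, 0.87, and the H and L lines differed by 0.73 (adjusted p = 0.000511). It was the single one of 26 UDP-glycosyltransferases called (3.85%, against 4.09% of all genes), and the median of that family was -0.03.

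Cyp4d1, a cytochrome P450 of a family that includes fatty acid hydroxylases, had Signals in males between 528 and 967 (median 651) in the selected lines and at 404, 343, 375 and 432 on the 4 control arrays. Females had Signals between 714 and 1599 (median 1069.6) in the selected lines and at 473, 414, 588 and 648 on the 4 control arrays. The difference was 0.89 ± 0.0798 (limma, adjusted p = 5.56e-06). Of 73 cytochromes P450 tested, 3 were called higher (Cyp4d1, Cyp4ac3 at 0.57 and Cyp6a13 at 0.37) and 5 lower (Cyp4ad1 at -0.48, Cyp4e1 at -0.40, Cyp4aa1 at -0.33, Cyp6d4 at -0.31 and Cyp18a1, which inactivates ecdysteroids, at -0.31), with a median of -0.04. Over all genes 1.59% were called higher and 2.49% lower. A second kept probe set of Cyp18a1, with a mean of 8.85 on the log2 scale, differed by 0.04 and was not called. The call of Cyp6a13 ended in 7 of the 24 fits that left out 1 array and that of Cyp4e1 in 3, and Cyp4ad1 was not called without C2. Cyp12d1-d had the lowest difference of the family, -1.81 ± 0.147, but its lines were not separated, since L1 at 10.65 lay above C2 at 9.41 on the log2 scale. None of 10 carboxylesterases was called.

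Lsp2, a hexamerin that stores amino acids in the hemolymph, had the highest difference of any called gene, 1.48 ± 0.209 (limma, adjusted p = 0.000422). In males its Signals were 593 to 5075 with a median of 2845 on the 8 selected arrays, against 735 and 384 on the C1 arrays and 875 and 419.5 on the C2 arrays. In females they were 240.1 to 1360.2 with a median of 530.4 on the 8 selected arrays, against 279 and 392 on the C1 arrays and 209.8 and 163 on the C2 arrays. The arrays overlapped in both sexes, and the nearest lines, L1 at 8.90 and C1 at 8.77 on the log2 scale, were 0.13 apart. The call was lost without male replicate 2 of C1. The lipocalin NLaz was the other called gene of 11 storage and transport proteins of the hemolymph, at 0.39 ± 0.0543. In that small list 18.2% were called, against 4.09% of all genes, and the median difference was -0.03. Among 40 cuticle proteins only Cpr49Ag was called, at 0.64 ± 0.106 (2.5%, against 4.09% of all genes). The list had 33 positive differences and a median of 0.15, but the H and L lines were unlike, with 17 positive and a median of -0.10 in H minus C and 36 positive and a median of 0.47 in L minus C.

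Further genes were called higher and separated in each sex. CG12780 differed by 0.83 ± 0.0894, CG44014 by 0.70 ± 0.0799, Phae2, a serine protease, by 0.67 ± 0.077 and CG13426 by 0.64 ± 0.137. Female Signals of CG13426 were near the floor, between 5.0 and 51.0 in the selected lines and between 1.7 and 6.3 in the control lines, and its male difference of 0.41 was not called (limma, adjusted p = 0.257). Phae1, the neighbor of Phae2 in the family, differed by 0.05 ± 0.08. CG44014 had a further pair of kept probe sets, one called higher at 0.73 and one not called at 0.10. The call of Phae2 ended when arrays were scaled to one median or quantile normalized within each sex and in 4 of the 24 fits that left out 1 array, and the calls of CG13426 and NimB3 ended without C2. Mal-A6, a maltase that splits disaccharides in the gut, was called higher at 0.55 ± 0.0768.

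Transcripts of 4 digestive proteases and of the peritrophins of one gene pair were lower in the selected lines. Of 27 Jonah and trypsin genes tested, 4 were called lower and none higher, against 2.49% called lower and 1.59% called higher over all genes, 22 had negative differences, and the median was -0.18 (-0.11 after quantile normalization) beside -0.01 over all genes. Many of these genes lie in clusters of near-identical copies, so that their probe sets may share transcripts. The gut markers alphaTry and betaTry differed by -0.11 and -0.16 and Jon99Ci by 0.41, none of them called. Ser6 of the list differed in the opposite direction, by 0.56 ± 0.0497 (limma, adjusted p = 4.85e-06), without separated lines.

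Jon44E had Signals in males of 504 to 1913 with a median of 1052 on the 8 selected arrays, against 3025 and 3516 on the C1 arrays and 2195 and 2522 on the C2 arrays. Female Signals were 1726 to 3978 with a median of 2502 on the 8 selected arrays, against 3685 and 4885 on the C1 arrays and 4886 and 5315 on the C2 arrays. Males did not overlap and females did. The difference was -1.16 ± 0.0867 (limma, adjusted p = 1.31e-06), with -1.64 in the H lines and -0.68 in the L lines, and the H and L lines differed by -0.96 (adjusted p = 1.7e-05). Jon65Aii ran the other way between the selected groups, at -0.72 in the H and -1.98 in the L lines, for a difference of -1.35 ± 0.119. L2 was the lowest line, with a mean of 8.45 on the log2 scale, the other selected lines had 10.57 to 11.52, and the control lines had 11.67 and 11.86. Jon99Fi had Signals in males between 3049 and 7576 (median 4636) in the selected lines and at 11326, 10928, 10745 and 10150.5 on the 4 control arrays. Its female arrays overlapped, and the difference was -1.17 in males and -0.37 in females.

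CG18179, a further protease of the list, had the lowest difference of all genes tested, -2.04 ± 0.299 (limma, adjusted p = 0.000567). In males its Signals were 8.6 to 134 with a median of 37.7 on the 8 selected arrays, against 296 and 697 on the C1 arrays and 279 and 70.5 on the C2 arrays. On female arrays they were 20.0 to 76.2 with a median of 41.5 on the 8 selected arrays, against 215 and 449 on the C1 arrays and 126 and 76.9 on the C2 arrays. These values are low on the array, and C1 exceeded C2 by 1.54 on the log2 scale (limma, adjusted p = 0.0641). CG9672, a serine protease outside the list, had the lowest adjusted p of any gene, 6.11e-08 in limma. Its Signals in males were 822 to 1249 with a median of 1020.4 on the 8 selected arrays, against 3229.8 and 3331 on the C1 arrays and 1877 and 1979.6 on the C2 arrays. Females had Signals of 1267 to 1957 with a median of 1528 on the 8 selected arrays, against 3885 and 4514 on the C1 arrays and 3366 and 3396 on the C2 arrays. No array overlapped, the difference was -1.27 ± 0.0651, and it was -1.29 in males and -1.26 in females. C1 and C2 also differed, by 0.53 (limma, adjusted p = 0.00556), so that the distance to the nearest control line was 0.82.

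The peritrophins Peritrophin-15a and Peritrophin-15b, neighbors on arm 2L, were both called lower. Peritrophin-15a Signals in males were 2116 to 3714 with a median of 2969.8 on the 8 selected arrays, against 4699.5 and 5095 on the C1 arrays and 5365 and 5200.2 on the C2 arrays. In females they were 4107 to 6359 with a median of 5157 on the 8 selected arrays, against 6799 and 8736 on the C1 arrays and 11423 and 11906 on the C2 arrays. The groups did not overlap in either sex, and the difference was -0.81 ± 0.0703 (limma, adjusted p = 4.24e-06). Peritrophin-15b differed by -1.16 ± 0.0997, with Signals in females between 396 and 638 (median 457) in the selected lines and at 747, 1090.3, 1316 and 1369 on the 4 control arrays. In males its Signals were between 100.1 and 364 (median 217) in the selected lines and at 580.0, 678, 390.1 and 346 on the 4 control arrays, where C2 reached the highest selected value. Of the other chitin-binding genes looked at after the values were seen, Peritrophin-A differed by -0.11 and obst-A, obst-B and obst-E by 0.26, -0.12 and -0.02, none of them called.

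Genes without a digestive role were among the lower ones too. SmydA-6, a member of the SET and MYND domain family of protein methyltransferases found in arthropods, had Signals in males of 53.6 to 72.7 with a median of 64.1 on the 8 selected arrays, against 155 and 151 on the C1 arrays and 201 and 127 on the C2 arrays. Female Signals were 47.6 to 102 with a median of 78.5 on the 8 selected arrays, against 154 and 123.2 on the C1 arrays and 147 and 138 on the C2 arrays. The difference of -0.94 ± 0.0801 (limma, adjusted p = 4.12e-06) came with the widest distance between nearest lines of any called gene, 0.84, and its neighbor SmydA-7 was called lower at -0.44 ± 0.0463. IA-2, a tyrosine phosphatase-like protein of dense-core secretory vesicles, had Signals in males between 1619 and 3104 (median 2070.1) in the selected lines and at 3307, 3182, 4949.5 and 4911 on the 4 control arrays. On female arrays they were between 965 and 1674 (median 1268) in the selected lines and at 2049, 2258, 2516 and 2821 on the 4 control arrays. Its difference was -0.88 ± 0.0776 (limma, adjusted p = 4.85e-06).

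Tsp39D, a tetraspanin of the cell membrane, differed by -1.03 ± 0.177, CG31041 by -1.05 ± 0.163, CG32984 by -0.89 ± 0.177 and Zip42C.2, a zinc transporter, by -0.70 ± 0.116, each separated in both sexes. Tsp39D and CG31041 were lower in the H than in the L lines, with H minus L differences of -1.04 and -0.88. Npc2c, of the family that binds sterols, was called lower at -0.98 ± 0.211 on low Signals, and LManI, a lysosomal mannosidase, at -0.41 ± 0.0764. Obp8a and Obp56f, of the odorant-binding proteins, were called in opposite directions at 0.66 and -0.52. The call of Obp56f ended in 23 of the 24 fits that left out 1 array, that of Obp8a without C1 and that of Npc2c without C1 or without C2.

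**Figure D3:**
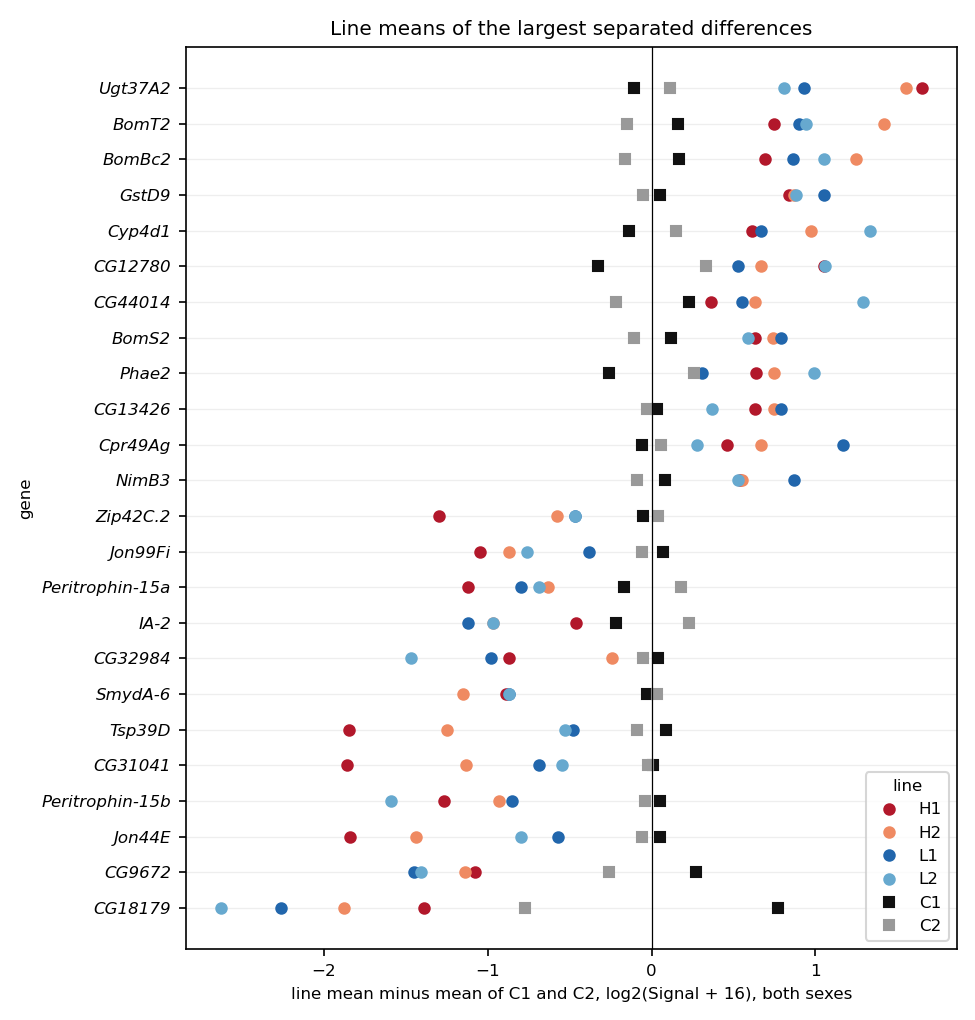
Mean of each line minus the mean of C1 and C2 (horizontal axis, log2(Signal + 16), both sexes) for the 12 largest differences in each direction among genes separated in each sex (rows), circles for the selected lines and squares for the control lines. All 4 circles of a gene lie beyond both squares, and the distance was widest for SmydA-6 (0.84) and narrow for Phae2 (0.05).

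Both H minus C and L minus C had an adjusted p under 0.05 for 175 of the 405 called genes, 69 higher and 106 lower. Over all genes tested, 10.5% passed for H minus C, 8.01% for L minus C and 2.76% for both with one sign. These contrasts share the control arrays and enter the rule. The following contrasts are orthogonal to selected minus control. However, the distance between H and L and that between C1 and C2 both bear on separation, and so on the call. H and L differed at an adjusted p under 0.05 in 47 called genes (11.6%, against 10.1% of all genes), and C1 and C2 in 26 (6.42%, against 9.22%). Males exceeded females in 34.8% of called and 37.2% of all genes, and females exceeded males in 51.6% and 50.1%.

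Within males, 272 genes were called (2.74%), 79 higher (0.797%) and 193 lower (1.95%). Within females, 150 were called (1.51%), 81 higher (0.817%) and 69 lower (0.696%). Of these, 15 genes were called higher and 19 lower in both sexes. The count in males was 108 without male replicate 1 of C2, 456 without L1 and 557 without C1. The count in females was 95 without female replicate 2 of C2, 263 without C2 and 438 without C1. In males, 39 of 47 testis and sperm genes had positive differences, with a median of 0.20 and 1 gene called higher, beside the higher testis marker sum of the selected males given above.

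The difference itself varied by sex for 33 genes (0.333%). In 14 of them female replicate 1 of C1, the array with male transcripts, was the highest female array, and each of these 14 genes was over 4-fold higher in males. Without that array 25 genes varied by sex, 17 of them among the 33, and without its partner, female replicate 2 of C1, 236 did, of which 211 were over 4-fold higher in males. CG5539 was of this kind, but its difference still varied by sex without female replicate 1 of C1. In males it was called higher, with Signals of 1864 to 2174 on the selected arrays and 1361 to 1495 on the control arrays. Its Signals in females were 2.7 to 12.1 with a median of 7.1 on the 8 selected arrays, against 63.8 and 45.7 on the C1 arrays and 7.8 and 3.8 on the C2 arrays, and the difference was -0.77 in females and 0.49 in males (limma, adjusted p = 0.00325).

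By contrast tej, which encodes a Tudor domain protein of the piRNA pathway in germ cells, had Signals in males of 2.3 to 26.3 with a median of 14.4 on the 8 selected arrays, against 41.8 and 53.3 on the C1 arrays and 46.3 and 42.0 on the C2 arrays. Females had Signals of 420.3 to 555 with a median of 504 on the 8 selected arrays, against 425 and 336 on the C1 arrays and 542 and 486 on the C2 arrays. Its difference was -1.08 in males, where Signals were low, and 0.18 in females (adjusted p = 0.00325), and its call over both sexes ended without C2. CG3857 differed by 0.68 in males and 1.88 in females (adjusted p = 0.00336), but its C1 arrays exceeded those of C2 by 1.34 on the log2 scale and its lines were not separated.

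**Figure D4:**
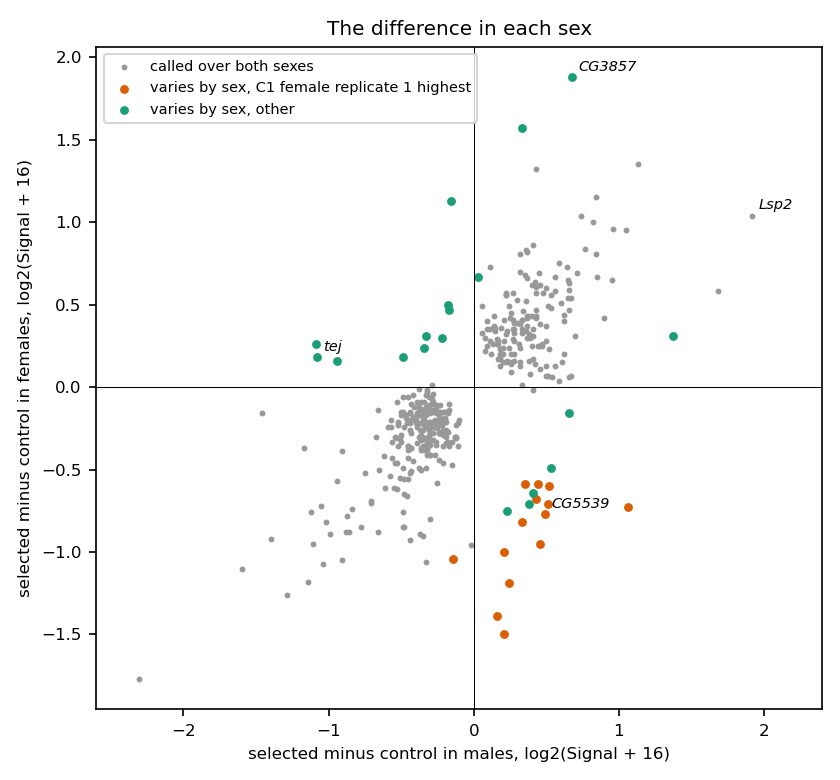
Selected minus control difference in males (horizontal axis) and in females (vertical axis), both in log2(Signal + 16), for genes called over both sexes (gray) and for the 33 genes whose difference varied by sex (orange where female replicate 1 of C1 was the highest female array, green otherwise). The 14 orange genes all lie below 0 in females, while tej lies far left of 0 in males and near 0 in females.

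The lists of biogenic amine, tested mutant, earlier aggression, neuronal and clock genes held 2 genes called over both sexes. Called genes outside these lists, such as IA-2, are not part of that count. None of 17 genes of biogenic amine synthesis, transport and reception was called, with a median of 0.00, and their differences ran between -0.31 for DAT, the dopamine transporter, and 0.41 for Octbeta1R, an octopamine receptor. None of 12 genes whose mutants the study tested was called, with a median of -0.06. That list lacked some genes whose mutants the study tested. The study had chosen its candidates by other contrasts among the H, L and C lines. None of 16 genes tied to aggression in earlier work was called, with a median of -0.10. NPF, a neuropeptide of the earlier work, was called lower in males taken alone at -0.48 (limma, adjusted p = 0.0335). Among 34 neuronal channels and synaptic genes, nAChRalpha4, a subunit of the acetylcholine receptor, was called lower at -0.37 ± 0.107 and 6 of the differences were positive. Among 14 clock genes, Clk, a transcription factor that activates the clock, was called lower at -0.43 ± 0.0987, and Pdf, the clock neuropeptide, differed by -0.36 without separated lines. Over all genes 4.09% were called, so these counts in small lists do not set them apart. Of the 24 fits that left out 1 array, 15 ended the call of nAChRalpha4 and 3 that of Clk.

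Energy and muscle genes were called about as often as all genes (4.09%), at 4.17% of the sarcomere list, 3.95% of the respiratory list and 5.88% of the insulin and starvation list. Of 24 sarcomere genes, 2 had positive differences, the median was -0.17, with -0.30 in H minus C and -0.04 in L minus C, where 1 and 8 were positive, and Mlc2, a myosin light chain, was called lower at -0.44 ± 0.113. Of 76 genes of the respiratory chain and ATP synthase, ND-B8 of complex I at -0.56, cype of cytochrome oxidase at -0.22 and SdhD of succinate dehydrogenase at -0.21 were called lower and none higher, with a median of -0.08 that was -0.02 after quantile normalization. That list had 39 positive differences and a median of 0.01 in males, and 9 and -0.17 in females. ACC, which starts fatty acid synthesis, and chico, the insulin receptor substrate, were called lower at -0.30 and -0.23 among 34 genes of insulin and starvation responses, of which 2 had positive differences. The phosphatase rdgC of phototransduction was called at -0.37, while its other kept probe set, at -0.08, was not called. Eip63E, an ecdysone-induced kinase, was called at -0.21. Each of these calls ended in at least 1 of the 24 fits that left out 1 array, in 6 for Mlc2 and ND-B8, 7 for cype, chico and Eip63E, 4 for ACC, 3 for rdgC and 1 for SdhD. No gene was called among 34 cytoplasmic ribosomal proteins, 30 proteasome subunits, 15 heat shock proteins or 16 antioxidant enzymes and metallothioneins. Of the last list, Prx6c, a peroxiredoxin, had the highest difference of all genes tested, 1.66 ± 0.133 (limma, adjusted p = 2.32e-06), and MtnB, a metallothionein, was at -1.12 ± 0.0848 (limma, adjusted p = 1.31e-06), both without separated lines. L2 at 7.22 lay below both control lines for Prx6c, and MtnB was called lower in males taken alone at -1.33.

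**Figure D5:**
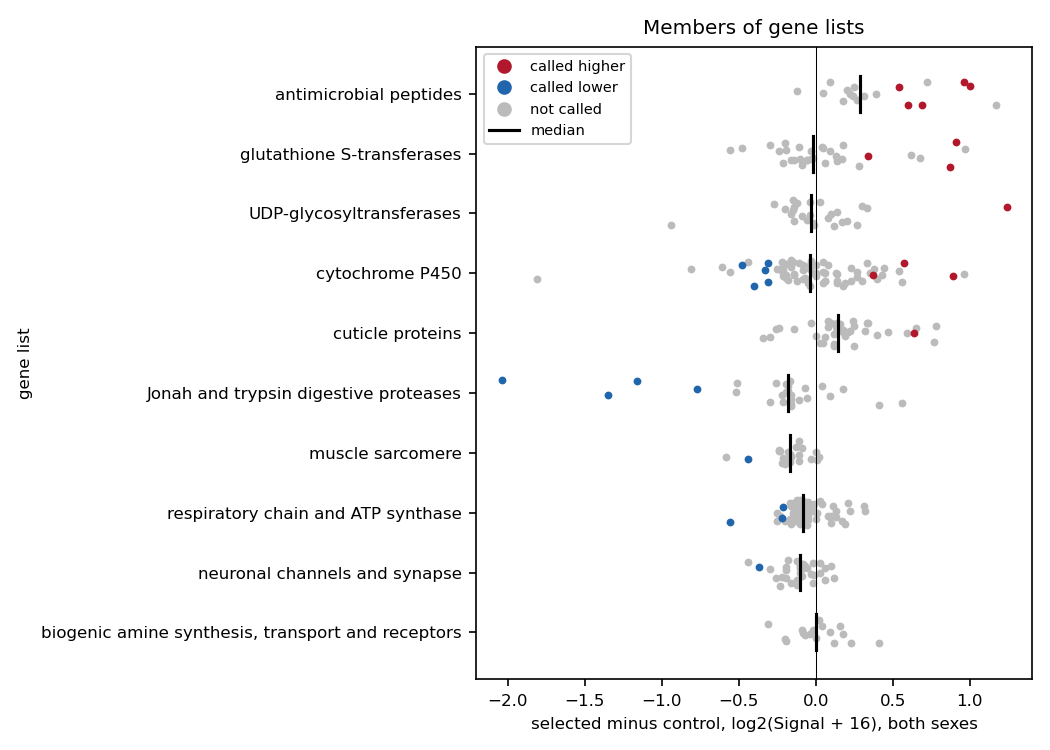
Selected minus control difference (horizontal axis, log2(Signal + 16), both sexes) of each member of 10 gene lists (rows), colored by call, with a black bar at the median of each list. Antimicrobial peptides lie to the right with a median of 0.29, Jonah and trypsin proteases and sarcomere genes to the left with medians of -0.18 and -0.17, and biogenic amine genes around 0.

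Some called genes were neighbors. Among 9868 pairs of adjacent tested genes, 17 pairs were called in one direction, 7 higher and 10 lower, and 7 pairs in opposite directions. In all, 31 called genes (7.65%) belonged to a pair of one direction. The shares called over all genes, 1.59% higher and 2.49% lower, would alone give some pairs, and their number was not worked out. Besides the bomanins, GstD10 with GstD9, the peritrophins and the SmydA genes, the pairs included the lower serine protease genes CG11911 and CG11912. The share of genes called was 3.89% on 2L, 4.28% on 2R, 4.48% on 3L, 4.14% on 3R and 3.77% on X, and none of 60 genes on the fourth chromosome was called by limma. For 26 called genes 35 other probe sets were kept, of which 21 had the sign of the call, 2 were called in the same direction and none in the opposite one.

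With the line as the replicate, no probe set had an adjusted p under 0.05 in limma on the 6 line means. The lowest adjusted p was 0.386, shared by GstD9 and SmydA-6, and an unadjusted p under 0.05 was reached by 550 probe sets (4.61%). That share is not above the 0.05 that the threshold alone would give. For a single gene the 6 lines allow 15 arrangements. The two-sided exact permutation p was taken as the doubled one-sided p, and its smallest value is 0.133, which every called gene named here had. With line as a random block in the fit over arrays, 14 genes were called. Of these, 5 were higher (Ugt37A2, BomT2, BomBc2, GstD9 and Cyp4d1). The 9 lower ones were CG9672, Jon44E, Peritrophin-15b, SmydA-6, IA-2, CG5953, Peritrophin-15a, Jon99Fi and CG32444. CG5953 differed by -0.87, but its nearest selected and control lines differed by only -0.01. Its other kept probe set, at -0.16, was not called. After the mean of each sex was removed, arrays of one line and sex had a median correlation of 0.33 (12 pairs), while between H1 and H2 or between L1 and L2 it was -0.09 (16 pairs). Selected arrays and control arrays correlated at a median of -0.13 (64 pairs), H and L arrays at -0.15 (32 pairs), and C1 and C2 arrays at -0.13 (8 pairs), as a description over probe sets, which are not independent. Removing the mean of each sex itself pushes correlations between different lines below 0, so their negative signs are not read as a result.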

How the data were processed

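Transcript abundance was measured on 24 Affymetrix whole-genome arrays. The authors computed the deposited intensity, the Signal of each probe set, with Affymetrix Microarray Suite (MAS5, per the labels) and scaled each array, so values are linear and those near the floor carry little information. Detection calls were not used here. Of 18769 probe sets, 13647 name 1 gene, 402 several and 4720 none, and gene names follow RefSeq (Release 6 plus ISO1 MT, 13544 matched by gene ID). No sequences or coordinates were used in the text.

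Probe sets with a 12th-highest Signal of at least 50 were kept (11928, with 6841 left out), and the one with the highest mean stood for its gene. In R 4.3.3 with limma 3.58.1, log2(Signal + 16) was fitted with a mean for each line and sex, with moderated variances and Benjamini-Hochberg adjustment over all kept probe sets; adjusted p-values of genes come from this fit unless stated. The number of arrays limits the precision. The rule and the gene lists were chosen with earlier results of these data known. The text names the 12 largest differences in each direction among called genes separated in each sex, up to 4 called members of each list, the 3 genes that varied most by sex and the 3 lowest p-values over lines. Other genes named were chosen after their values were seen. Scripts were tested on simulated data. Where simulated lines differed as the real ones, the rule over arrays also called many probe sets that had not been shifted, and the fit over line means few. Alternatives were other filters and pseudocounts (1, 64), scaling to one median and quantile normalization within each sex, ordinary variances, line as a random block, a replicate block, the doubtful male read as H1, a threshold of 0.01, and fits without each array or each line.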

Additional observations from a re-analysis of the deposited data

Results flagged for a closer look

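Of the 50 called genes picked by the naming rule of the methods, 4 had 1 selected line apart from the other 3. The test took the gap to the nearest line over the range of the 4 selected lines. It flags about 1 in 20 groups by chance, so a few flags among 50 genes would arise anyway. Other called genes were not put to this test. NimB3 had a mean of 9.02 in L1 and 8.68 to 8.70 in the other selected lines, all above the control lines. SmydA-6 had a mean of 6.21 in H2 and 6.47 to 6.49 in the others. Zip42C.2, the zinc transporter, had a mean of 6.26 in H1 and 6.98 to 7.09 in the others. The cytochrome oxidase subunit cype had a mean of 13.95 in L2 and 13.77 to 13.80 in the others, and L2 was level with C1, also at 13.95. All are means of log2(Signal + 16) over both sexes.

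The difference between selected and control lines was tested between the sexes in limma, and the lowest adjusted p-values were 0.00325 for CG5539 (0.49 in males, -0.77 in females), 0.00325 for tej (-1.08 in males, 0.18 in females) and 0.00336 for CG3857 (0.68 in males, 1.88 in females). CG5539 had its highest female Signals on both C1 arrays.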

How the results depend on the processing

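The count of 405 called genes (158 higher, 247 lower) became 14 (5 and 9) with line as a random block, 196 (78 and 118) at an adjusted p under 0.01, 630 (249 and 381) without L1 and 1029 (518 and 511) without C1; with fewer lines, fewer differences must have one sign. Without C2 the count was 466, of which only 159 were among the 405, so the set of genes rests on both control lines. Leaving out 1 array gave 292 to 502 genes (110 to 234 higher, 182 to 268 lower), lowest without male replicate 1 of C2 and highest without female replicate 2 of L1. The 272 genes in males became 156 without the filter, 511 with a pseudocount of 64, 6 with the random block, 84 at 0.01, 456 without L1, 557 without C1, 386 without both arrays that stood apart (added after the data had been seen) and 108 to 345 without 1 array. The 150 in females became 97 without the filter, 13 with the random block, 59 at 0.01, 438 without C1, 263 without C2 and 95 to 197 without 1 array. The 33 genes that varied by sex became 6 without the filter, 3 and 69 with pseudocounts of 1 and 64, 9 with the random block, 19 with the doubtful male read as H1, 10 with ordinary variances, 4 at 0.01, 18, 5, 57, 9 and 8 without H1, H2, L1, L2 and C1, 84 without both arrays that stood apart and 5 to 236 without 1 array. The cause of these changes was not tested. CG5539 over both sexes, not called at -0.14, was 0.06 with a pseudocount of 64 and 0.28 without C1. With the replicate block 464 genes were called (191 higher, 273 lower), 403 of them among the 405; same-numbered arrays of one sex in different lines correlated at -0.1 to 0.21 (median 0.06, 8 of 30 pairs over 0.1), so the numbers were not taken as pairs. The line-as-replicate count stayed 0 without any 1 array (0 to 0). The higher share of calls was 39% as reported, 33.7% with arrays scaled to one median and 43.3% after quantile normalization.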

Other observations

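Mucins, the glycoproteins of mucus and of the peritrophic matrix, were looked at after their values were seen. Of 6 Muc genes tested, 4 were called lower and none higher, against 2.49% called lower over all genes, and the median difference was -0.33. Muc68D was lower on every selected array than on any control array of the same sex, with Signals in males of 4327 to 5855 with a median of 5497 on the 8 selected arrays, against 6221 and 6411 on the C1 arrays and 7104 and 6271 on the C2 arrays. In females its Signals were 4599 to 6154 with a median of 5104 on the 8 selected arrays, against 7064 and 6431 on the C1 arrays and 7258 and 6187 on the C2 arrays. Its difference was -0.35 ± 0.0501 (limma, adjusted p = 0.00046). Muc11A, at -0.31 ± 0.0617, Muc4B, at -0.92 ± 0.168, and Muc12Ea, at -0.49 ± 0.144 (limma, adjusted p = 0.0446), were called with overlapping arrays. Their nearest selected and control lines differed by -0.07, -0.11 and -0.01. Male Signals of Muc4B and Muc12Ea were low, with medians of 25.1 and 15.3 on the selected arrays, beside 378 and 1800 in females.

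Among 29 genes of the piRNA pathway, which silences transposons in germ cells and was also chosen after values were seen, tej and rhi were called lower, none was called higher and the median difference was -0.05. Over all genes 2.49% were called lower and 1.59% higher, so the calls in this small list do not set it apart. For rhi, which encodes the chromatin protein Rhino, Signals in females were 208 to 1027 with a median of 614 on the 8 selected arrays, against 965 and 915 on the C1 arrays and 933 and 944 on the C2 arrays. The difference was -0.83 ± 0.0837 (limma, adjusted p = 1.95e-05), and the nearest selected and control lines were 0.05 apart. Male Signals of rhi were low and overlapped, between 1.4 and 29.8 in the selected lines and at most 47.4 in the control lines, and its difference was -0.87 in males and -0.78 in females.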
